A study of Homo sapiens with 9 samples.

Results

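The genes described here are annexins, S100 proteins and membrane or lectin genes that mark mesenchymal-like cells, and they were taken by gene symbol from a list of 10: ANXA1, ANXA2, ANXA5, ANXA6, S100A6, S100A10, S100A11, LGALS1, CD44 and CAV1. Of these, 5 had a row among the 25084 genes of the expression table (ANXA5, ANXA6, S100A11, LGALS1 and CD44), and all 5 passed the filter on low values. ANXA1, ANXA2, S100A6, S100A10 and CAV1 had no row under these symbols or their synonyms, no row overlapped their GRCh38 positions, and they were not analysed here. The listed genes alone make up the full total in each library, so a gene without a row lay outside the total used for scaling.

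RNA came from LAN5, an established human neuroblastoma cell line with amplified MYCN, grown in serum-containing medium and given a small interfering RNA (siRNA) by nucleofection 72 h before extraction. The 3 groups held 3 libraries each and differed in the siRNA: a control (siCTR), 1 siRNA against MYCN (siMYCN) and 1 siRNA against HAND2 (siHAND2). All groups share the line, the electroporation and the medium, and no second siRNA per target was included, so effects of the sequence and of the target cannot be told apart. The comparison asks which transcripts differ between the groups.

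Annexins are cytosolic proteins that attach to acidic phospholipids of membranes when calcium rises, and S100 proteins are small calcium sensors, several of which bind an annexin. Galectin-1 (LGALS1) is a lectin that binds beta-galactosides on surface glycoproteins, CD44 is the main surface receptor for hyaluronan, and CAV1 builds the coat of caveolae. In neuroblastoma these genes are known as markers of the mesenchymal cell state, as opposed to the noradrenergic state with its catecholamine enzymes.

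The values are CPM, the reads of each gene brought to a common library total of 1000000. The reads assigned to genes numbered about 21100000 to 32700000 per library, judged by the size of 1 read in the low values. At 1 CPM this is 21.1 to 32.7 reads, for which counting error alone is 17.5% to 21.8%. Tests used limma on log2(CPM + 1) over the 14495 genes that reached 1 CPM in 3 or more libraries, with p-values adjusted by the Benjamini-Hochberg method and a threshold of 0.05. The labels call the libraries replicates without naming separate cultures, so p-values measure the spread between these libraries. MYCN was lower in siMYCN (1289 ± 47.0 CPM against 1842 ± 54.2 in siCTR) and in siHAND2 (914 ± 48.4). HAND2 was lower in siHAND2 (272 ± 7.65 against 501 ± 13.7 CPM) and higher in siMYCN (571 ± 15.9, SD, n = 3 each). MYCN stood at 49.6% of siCTR in siHAND2 and at 70.0% in siMYCN. The direct comparison put MYCN lower in siHAND2 by -0.50 (limma adjusted p = 6.21e-07). In siHAND2, effects of the loss of HAND2 and of MYCN therefore cannot be told apart.

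The labelled cell type was checked against noradrenergic neuroblastoma markers, of which 11 of 12 had a row and 10 passed the filter. In siMYCN, 9 of the 10 rose, and in siHAND2, 3 rose and 4 fell. Over all tested genes, 24.5% were called higher in siMYCN, and 18.1% higher and 11.8% lower in siHAND2. DBH, which makes noradrenaline, averaged 263 ± 18.2 CPM for siCTR, 344 ± 18.1 for siMYCN and 130.1 ± 5.65 for siHAND2, while the growth cone gene STMN2 averaged 177 ± 11.2, 289 ± 9.74 and 343 ± 23.9 (SD, n = 3). Summed over the 11, of which ELAVL4 alone held 953 CPM or more, the siCTR libraries had 2128 to 2263 CPM, those of siMYCN 2722 to 2806 and those of siHAND2 2198 to 2310. SLC18A2, the vesicular monoamine transporter, stayed at or below 1.36 CPM and TH, the first enzyme of catecholamine synthesis, at or below 4.42. The part of these markers in the results below was not tested. Endothelial, leukocyte and epithelial lists summed to at most 2.26, 0.964 and 4.83 CPM in any library. Of 6 Schwann cell genes with a row (8 in the list), 5 stayed at or below 1.25 CPM, SOX10 among them at or below 0.532. The sixth, PMP22, held most of the sum, which ran from 97.98 to 106 CPM for siCTR, from 152 to 157 for siMYCN and from 34.96 to 36.8 for siHAND2.

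The promoters of the genes that moved are shown because both targeted factors bind E-boxes: MYCN with its partner MAX prefers CACGTG, and HAND2 with an E protein binds CANNTG. RefSeq sequences (GRCh38.p14, 250 bases before to 50 after the start site, 300 in all) were matched for 4 of the 5 genes, and LGALS1 had no entry. They are written 5′ to 3′ along the gene, with every CANNTG in capitals. ANXA6 (chr5:151157730-151158029, minus strand) and ANXA5 (chr4:121696931-121697230, minus strand) come first, then S100A11 (chr1:152036955-152037254, minus strand) and CD44 (chr11:35138921-35139220, plus strand).
ANXA6: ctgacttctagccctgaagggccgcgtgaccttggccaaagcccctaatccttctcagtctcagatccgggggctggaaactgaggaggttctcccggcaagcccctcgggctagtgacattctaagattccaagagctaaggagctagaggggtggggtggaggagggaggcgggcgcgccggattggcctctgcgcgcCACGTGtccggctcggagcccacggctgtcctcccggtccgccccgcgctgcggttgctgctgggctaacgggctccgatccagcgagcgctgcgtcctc
ANXA5: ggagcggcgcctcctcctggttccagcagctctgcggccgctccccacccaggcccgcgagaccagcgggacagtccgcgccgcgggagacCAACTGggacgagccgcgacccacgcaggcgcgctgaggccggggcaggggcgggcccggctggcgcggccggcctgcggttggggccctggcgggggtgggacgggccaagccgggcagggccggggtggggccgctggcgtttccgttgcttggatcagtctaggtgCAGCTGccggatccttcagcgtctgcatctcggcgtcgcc
S100A11: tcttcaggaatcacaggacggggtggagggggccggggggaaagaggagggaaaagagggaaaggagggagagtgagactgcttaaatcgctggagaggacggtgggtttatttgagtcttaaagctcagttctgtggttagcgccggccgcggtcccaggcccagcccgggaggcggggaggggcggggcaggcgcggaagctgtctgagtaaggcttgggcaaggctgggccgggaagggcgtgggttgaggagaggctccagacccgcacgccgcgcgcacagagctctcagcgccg
CD44: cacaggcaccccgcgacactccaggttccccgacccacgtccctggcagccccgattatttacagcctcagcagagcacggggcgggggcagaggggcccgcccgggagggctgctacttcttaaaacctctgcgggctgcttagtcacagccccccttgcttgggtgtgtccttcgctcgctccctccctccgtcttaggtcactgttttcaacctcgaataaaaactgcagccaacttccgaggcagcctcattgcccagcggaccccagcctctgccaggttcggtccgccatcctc
The ANXA6 window held 1 CANNTG, the form CACGTG, whose first base lies at -50 when the start site is 0. The ANXA5 window held 2, CAACTG at -159 and CAGCTG at 10. The S100A11 and CD44 windows held none, which says only that these letters are not in these 300 bases. Among 35116 promoters of this length, 68.7% held CANNTG and 7.26% held CACGTG, which is one of its forms and reads the same on both strands. CATCTG, searched on both strands, was in none of the 4 and in 14.7% of all. GC content was 76.3% for ANXA5, 66.3% for ANXA6, 65.3% for S100A11 and 63.3% for CD44, beside a median of 58.7%.

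Levels can be compared between genes only per length of transcript, here CPM per kilobase of the canonical transcript. In siCTR the order was LGALS1 (96.6 ± 4.26 CPM per kb, 528 bases), ANXA6 (68.0 ± 1.35, 2889 bases), ANXA5 (62.3 ± 1.47, 1638 bases), S100A11 (2.78 ± 0.234, 563 bases) and CD44 (1.25 ± 0.121, 5431 bases; SD, n = 3 libraries). The same order of means held in siMYCN and siHAND2, and in siCTR each neighbouring pair lay further apart than its SDs. The 2 annexins and the galectin were thus transcripts of middle to high level, while S100A11 and CD44 were low. By siCTR CPM, ANXA6 lay at the 94.5th percentile of the tested genes, ANXA5 at the 86.9th, LGALS1 at the 71.8th, CD44 at the 27.4th and S100A11 at percentile 9.22. These percentiles take no account of length, so their order differs from that per length. No ranking of all genes per length was made.

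**Figure D1:**
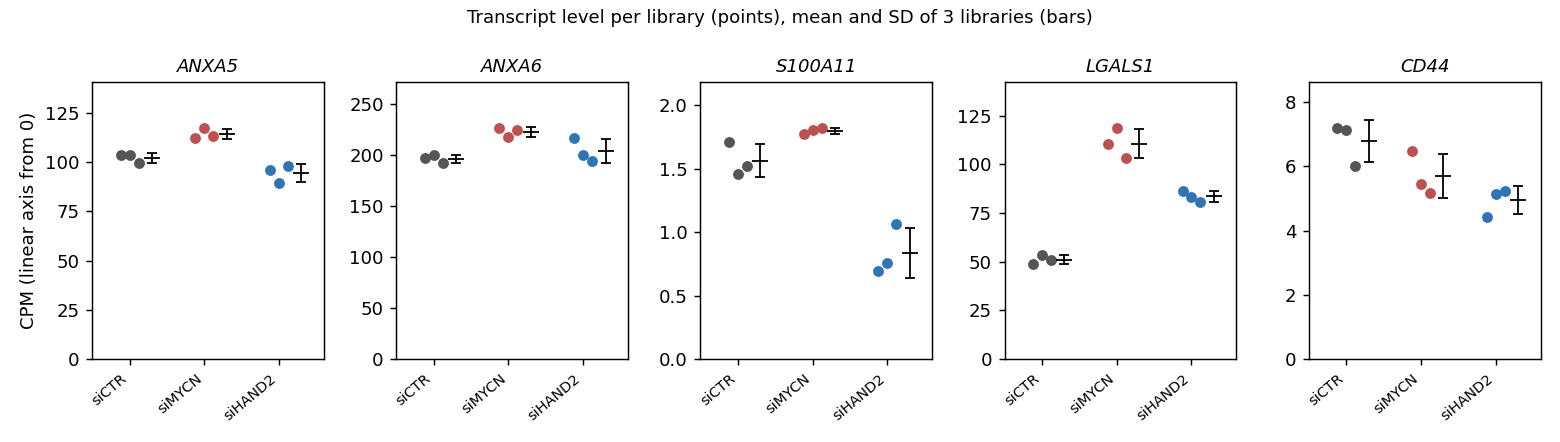
CPM (linear axis from 0) of the 5 genes in each of the 9 libraries, as points by siRNA group, with the mean and SD of 3 libraries beside them. The LGALS1 points of both knockdowns lie above all siCTR points (53.4 CPM at most), and the S100A11 points of siHAND2 (1.06 CPM at most) lie below those of the other groups.

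LGALS1 was higher in both knockdowns, ANXA5 and ANXA6 were slightly higher in siMYCN, and S100A11 and CD44 were lower in siHAND2. In siMYCN against siCTR, 3 of the 5 genes passed the threshold, all higher (LGALS1, ANXA5 and ANXA6), beside 35.9% of all genes tested that passed in either direction and 24.5% that passed as higher. In siHAND2 against siCTR, 3 of 5 passed, LGALS1 higher and S100A11 and CD44 lower, beside 29.9% in either direction, 18.1% higher and 11.8% lower. In siHAND2 against siMYCN, 4 of 5 passed, all lower in siHAND2 (LGALS1, S100A11, ANXA5 and ANXA6), beside 26.9% in either direction and 15.5% lower. The ANXA6 call between the knockdowns was lost under 12 of 19 alternatives. After median-ratio rescaling only 1 of the 5, LGALS1, was called in siMYCN against siCTR. The 2 comparisons against siCTR share their control libraries. In bulk RNA, fewer cells with a transcript and less of it per cell cannot be told apart.

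The direction of small changes depended on how libraries were scaled. The share of called genes that were higher in siMYCN was 68.3% on the deposited scale. It was 49.7% once libraries were rescaled by median ratio and 49.3% with quantile-normalized values. For siHAND2 against siCTR it was 60.6%, 42.1% and 47.8%. Over the 14495 tested genes the median log2 fold change was 0.06 in siMYCN and 0.04 in siHAND2, and with all 25084 genes included it was 0.03 in both.

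**Figure D2:**
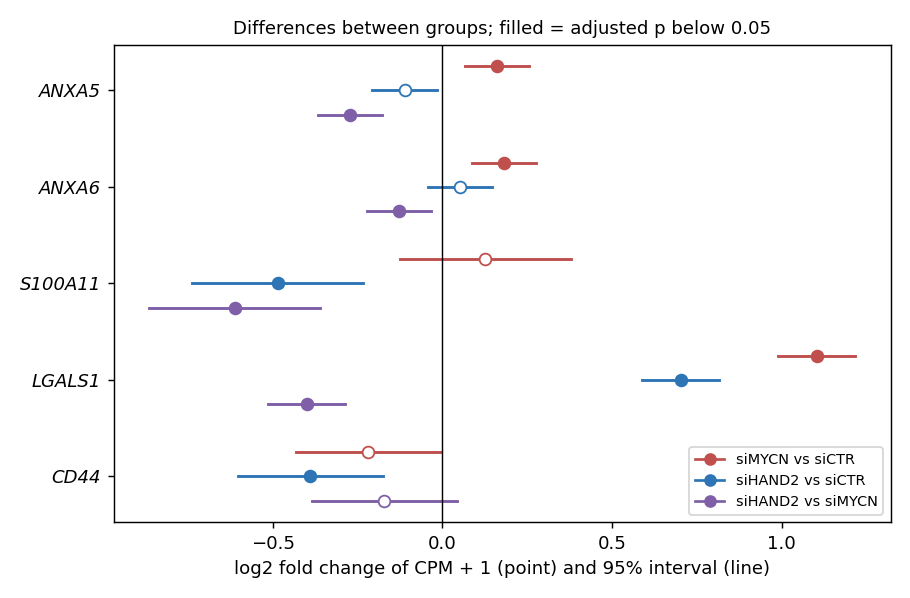
Log2 fold change of CPM + 1 (points) with its unadjusted 95% interval (lines) for each gene in the 3 comparisons, filled where the adjusted p was below 0.05. Against siCTR, LGALS1 stands at 1.10 and 0.70, and the other genes lie between -0.49 and 0.18. In siHAND2 against siMYCN the values run from -0.61 (S100A11) to -0.13 (ANXA6).

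LGALS1, which encodes the secreted lectin galectin-1 (chromosome 22, 37675636 to 37679802, plus strand, GRCh38), was higher in both knockdowns, with the largest log2 fold change of the 5 genes against siCTR on the log2(CPM + 1) scale. As a ratio of mean CPM, S100A11 differed more than LGALS1 in siHAND2, and it also differed more between the knockdowns. Replicates 1 to 3 of siCTR held 48.9, 53.4 and 50.7 CPM, those of siMYCN 111, 118 and 103, and those of siHAND2 86.5, 83.3 and 81.0. The 3 groups did not overlap: every siMYCN library was the higher of any pair with siHAND2, and every siHAND2 library lay above every siCTR library. The means were 51.0 ± 2.25, 111 ± 7.67 and 83.6 ± 2.76 CPM (SD, n = 3), so LGALS1 stood at 217% of its siCTR mean in siMYCN and at 164% in siHAND2.

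On the log2(CPM + 1) scale LGALS1 rose by 1.10 in siMYCN (standard error 0.05, limma adjusted p = 2.44e-09), at the 99.9th percentile of all fold changes in that comparison. It rose by 0.70 in siHAND2 (standard error 0.05, limma adjusted p = 5.68e-08), at the 98.4th percentile. The direct comparison put siHAND2 below siMYCN by -0.40 (95% interval -0.51 to -0.29, limma adjusted p = 2.99e-05). All 3 calls held under each alternative run, with values from 1.04 to 1.15 in siMYCN, 0.65 to 0.73 in siHAND2 and -0.45 to -0.35 between the knockdowns.

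Fibroblasts also express galectin-1, and fibroblast markers moved with the groups. Of 8 markers, 7 had a row and 5 passed the filter, and 4 of those rose in siMYCN. In siHAND2, 4 rose and 1, THY1, fell. Over all tested genes, 24.5% were called higher in siMYCN, and 18.1% higher and 11.8% lower in siHAND2. DCN passed the filter only through knockdown libraries, since it stayed at or below 0.522 CPM in siCTR. In siHAND2 against siCTR, the matrix gene DCN averaged 11.02 ± 0.781 CPM against 0.431 ± 0.0794, COL6A3 14.4 ± 2.57 against 2.20 ± 0.390, and the growth factor receptor PDGFRA 341 ± 27.7 against 121 ± 4.49 (SD, n = 3). COL1A1, a defining fibroblast collagen, lay below the filter, between 0.279 and 0.936 CPM in all libraries. It averaged 0.720 ± 0.207 CPM in siCTR and 0.363 ± 0.142 in siHAND2. POSTN averaged 0.426 ± 0.106 CPM in siHAND2 and 0.0159 ± 0.0274 in siCTR. Summed over the 7, the siCTR libraries had 278 to 282 CPM, those of siMYCN 326 to 329 and those of siHAND2 565 to 642. PDGFRA and PDGFRB held most of the sum, and PDGFRB averaged 179 ± 17.3 CPM in siHAND2 against 89.8 ± 3.07 in siCTR. The part of these markers in the LGALS1 values was not tested.

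The profiles most like that of LGALS1 over the 9 libraries, by root-mean-square difference of log2(CPM + 1) from the siCTR mean, were sought among the 11197 tested genes that averaged 5 CPM or more. The nearest was SNPH, the gene of the axonal mitochondrial anchor syntaphilin (root-mean-square difference 0.146). It went from 11.5 ± 0.799 CPM in siCTR to 26.7 ± 1.90 in siMYCN and 17.5 ± 1.71 in siHAND2. UBE2QL1 (0.166) and the noncoding RNA gene LINC02691 (0.171) followed. Their log2 fold changes were 1.06 and 0.93 in siMYCN and 0.45 and 0.48 in siHAND2, all smaller than those of LGALS1. These genes were picked for likeness, so their values are a description.

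ANXA5 encodes annexin A5, which binds phosphatidylserine and is used to stain dying cells (chromosome 4, 121667946 to 121696995, minus strand). The siCTR libraries held 103, 103 and 99.2 CPM, the siMYCN libraries 112, 117 and 113, and the siHAND2 libraries 95.9, 89.4 and 97.9. The groups did not overlap, with siMYCN on top and siHAND2 lowest. The means were 102 ± 2.41, 114 ± 2.51 and 94.4 ± 4.46 CPM (SD, n = 3). ANXA5 rose by 0.16 in siMYCN (standard error 0.04, limma adjusted p = 0.0104), that is to 112% of siCTR. Median-ratio rescaling ended the call (0.10, adjusted p = 0.0984), as did quantile values (adjusted p = 0.0831) and a fit without siCTR replicate 3 (0.14, adjusted p = 0.0514).

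In siHAND2 the ANXA5 difference was -0.11 (standard error 0.04, limma adjusted p = 0.0722) and did not pass. It passed with median-ratio scaling (-0.17, adjusted p = 0.00982), with quantile values (adjusted p = 0.0270) and without siHAND2 replicate 3 (adjusted p = 0.0266). The direct comparison held under all alternatives: ANXA5 was lower in siHAND2 than in siMYCN by -0.27 (95% interval -0.37 to -0.18, limma adjusted p = 0.000225), with alternatives from -0.30 to -0.23.

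ANXA6 encodes annexin A6, the family member with a doubled annexin core (chromosome 5, 151100706 to 151157785, minus strand). The siCTR libraries held 197, 199.97 and 192 CPM, the siMYCN libraries 226, 217 and 225, and the siHAND2 libraries 217, 199.98 and 195. The siMYCN libraries lay above all others, by a narrow margin over siHAND2 replicate 1, and siHAND2 overlapped siCTR. ANXA6 rose by 0.18 in siMYCN (standard error 0.04, limma adjusted p = 0.00466), to 113% of siCTR, from 196 ± 3.89 to 223 ± 4.82 CPM. After median-ratio rescaling that value was 0.12 (adjusted p = 0.0696). In siHAND2, at 204 ± 11.6 CPM, the difference was 0.05 (95% interval -0.04 to 0.15, limma adjusted p = 0.412), and it turned to -0.0047 after median-ratio rescaling. The direct comparison gave -0.13 (limma adjusted p = 0.0409), a call lost under 12 of 19 alternatives.

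S100A11 encodes the calcium-binding protein S100A11, a known partner of annexin A1 (chromosome 1, 152032506 to 152047907, minus strand). Its row reaches past the RefSeq gene end at 152037004, upstream of the start used for the promoter. The siCTR libraries held 1.71, 1.46 and 1.52 CPM, the siMYCN libraries 1.77, 1.80 and 1.82, and the siHAND2 libraries 0.691, 0.757 and 1.06. In the same order these rest on about 56, 39 and 32 reads for siCTR, on 44, 47 and 53 for siMYCN and on 21, 19 and 30 for siHAND2. All siHAND2 libraries lay below the other 6, and siMYCN lay narrowly above siCTR.

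The S100A11 means were 1.56 ± 0.132, 1.80 ± 0.0226 and 0.837 ± 0.199 CPM (SD, n = 3), so siHAND2 stood at 53.5% of siCTR and 46.6% of siMYCN. In siHAND2, S100A11 fell by 0.49 in log2(CPM + 1), with a standard error of 0.12 (limma adjusted p = 0.00563). It was lower in siHAND2 than in siMYCN by -0.61 (95% interval -0.86 to -0.36, limma adjusted p = 0.0010). The siMYCN difference was 0.13 (95% interval -0.13 to 0.38, limma adjusted p = 0.439), which did not pass. At this level the pseudocount sets the size: with 0.1 CPM added the siHAND2 value was -0.85 and with 5 CPM -0.17, both past the threshold. Under a filter of 5 CPM the gene was not tested. It passed the filter of 1 CPM through siCTR and siMYCN, since in siHAND2 only replicate 3 (1.06 CPM) reached 1 CPM.

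CD44 encodes the hyaluronan receptor (chromosome 11, 35138870 to 35232402, plus strand), whose many splice forms are summed in 1 row. The siCTR libraries held 7.18, 7.15 and 6.03 CPM, the siMYCN libraries 6.48, 5.45 and 5.17, and the siHAND2 libraries 4.44, 5.14 and 5.24. The siHAND2 libraries lay below all siCTR libraries, while siMYCN overlapped both. The means were 6.79 ± 0.659, 5.70 ± 0.691 and 4.94 ± 0.437 CPM (SD, n = 3). In siHAND2, at 72.8% of siCTR, CD44 fell by 0.39 (standard error 0.10, limma adjusted p = 0.00794), and the call held under all 19 alternatives (-0.47 to -0.25).

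In siMYCN the CD44 difference was -0.22 (95% interval -0.43 to -0.0041, limma adjusted p = 0.105). It passed after quantile normalization (-0.30, adjusted p = 0.0299) and without siMYCN replicate 1 (-0.30, adjusted p = 0.0436), as a fall. The direct comparison gave -0.17 (95% interval -0.39 to 0.04, limma adjusted p = 0.230), so a different response of CD44 to the 2 siRNAs was not shown.

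**Figure D3:**
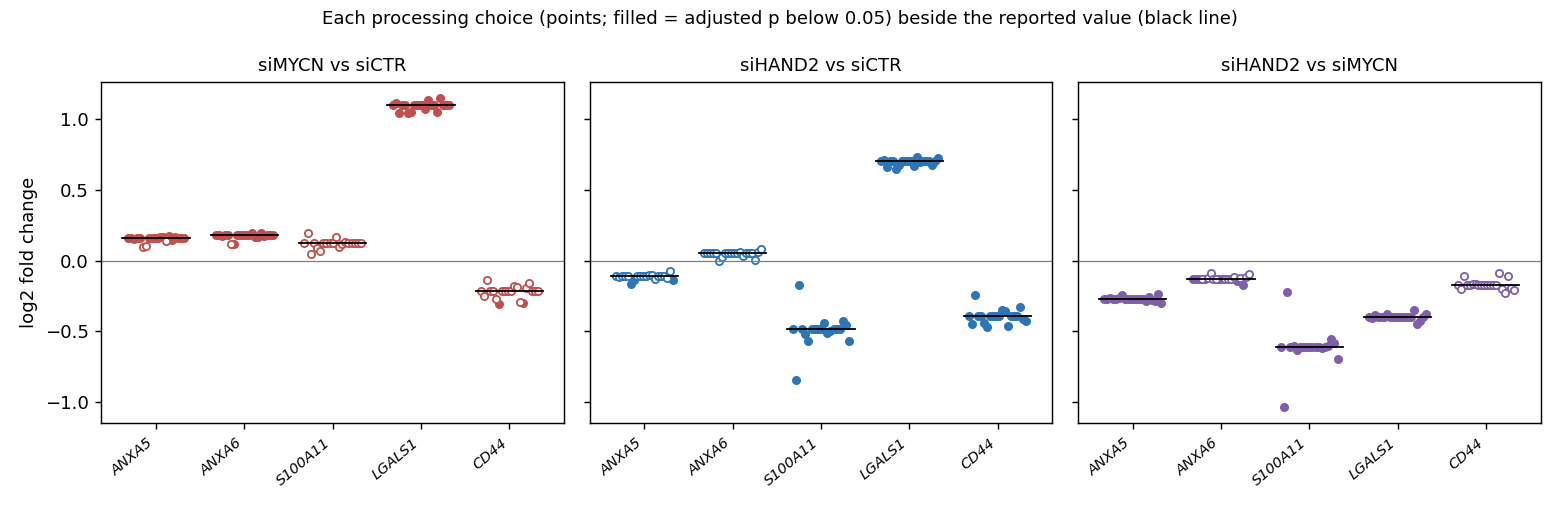
Log2 fold change of the 5 genes under each processing choice (points, filled where the adjusted p was below 0.05), with the reported value as a black line. LGALS1 stays filled in the 3 comparisons, ANXA6 is mostly open in siHAND2 against siMYCN, and S100A11 spreads widest, from -0.85 to -0.17 in siHAND2 against siCTR and from -1.04 to -0.22 in siHAND2 against siMYCN.

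Genes of the same families and of the pathways around them were taken from 6 lists with 100 genes, of which 66 had a row and 42 passed the filter. In siMYCN, 17 were higher, 1 was lower and 24 did not pass (42.9% called, beside 35.9% of all tested genes), with a median log2 fold change of 0.15 beside 0.06. In siHAND2, 7 were higher, 9 lower and 26 did not pass (38.1% called, beside 29.9%), with a median of -0.04 beside 0.04. Between the knockdowns, 5 were higher and 18 lower in siHAND2 (54.8% called, beside 26.9%), with a median of -0.13 beside -0.01. Of all tested genes, 24.5% were higher and 11.4% lower in siMYCN, and 18.1% and 11.8% in siHAND2. Between the knockdowns, 11.4% were higher and 15.5% lower in siHAND2. These counts are on the deposited scale. After median-ratio rescaling the siMYCN calls of ANXA7, LGALS3BP, PACSIN2, ROR1 and VCAN were lost, while those of CEMIP2, EZR, AHNAK and AHNAK2 held.

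Of 9 other annexins 4 had a row, and 2 of these passed the filter. ANXA7, an annexin with a long N-terminal tail, rose by 0.17 in siMYCN (32.9 ± 1.18 to 37.1 ± 1.10 CPM, limma adjusted p = 0.0274), a call lost under 6 alternatives, median-ratio rescaling (0.11) and quantile normalization (0.12) among them. Leaving out siCTR replicate 1, siCTR replicate 3, siMYCN replicate 2 or siMYCN replicate 3 also ended it. ANXA11, which links RNA granules to lysosomes, fell by 0.33 in siHAND2, from 31.9 ± 0.258 to 25.1 ± 1.27 CPM (limma adjusted p = 0.000255). ANXA4 and ANXA9 stayed between 0.449 and 0.996 CPM.

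Of 18 other S100 genes 5 had a row, and the level of those without a row is not known. The 4 calcium sensors among the 5 (S100A1, S100A4, S100A13 and S100B) lay between 0.0344 and 1.04 CPM. The fifth, S100PBP, encodes a binding protein of S100P and no S100 protein itself. It rose by 0.19 in siHAND2 (18.9 ± 0.179 to 21.7 ± 1.48 CPM, limma adjusted p = 0.0297), with the call lost under 7 alternatives. These were both rescalings (0.13 with the median ratio) and the fits without siCTR replicate 1, 2 or 3 or siHAND2 replicate 2 or 3.

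Among 11 other galectin genes 6 had a row and 3 passed the filter. LGALS3BP, the secreted galectin-3 binding protein, rose by 0.22 in siMYCN, from 240.2 ± 10.98 to 280.3 ± 13.01 CPM (limma adjusted p = 0.00508), and after median-ratio rescaling that was 0.16 (adjusted p = 0.0549). Galectins 3, 4 and 9 stayed at or below 0.524 CPM. In siHAND2, LGALS3BP measured 244 ± 19.5 CPM, a difference of 0.02 from siCTR (limma adjusted p = 0.801).

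Caveola genes, counted because CAV1 belongs to them, had 10 of 13 rows and 8 genes tested. In siMYCN, 2 were higher and 6 did not pass, and in siHAND2, 1 was higher, 3 were lower and 4 did not pass. These counts stand beside 24.5% of all tested genes higher in siMYCN, and 18.1% higher and 11.8% lower in siHAND2. The coat gene CAVIN1 and the muscle caveolin CAV3 stayed at or below 0.285 CPM. PACSIN2, which bends membranes at caveolar necks, rose by 0.20 in siMYCN (59.8 ± 1.501 to 68.9 ± 1.15 CPM, limma adjusted p = 0.00589), with the call lost after median-ratio (0.14) and quantile (0.14) rescaling. ROR1, a receptor kinase known to hold caveolin and cavin together, rose by 0.18 in siMYCN and fell by 0.20 in siHAND2 (41.2 ± 0.177, 47.0 ± 1.37 and 35.8 ± 2.65 CPM in siCTR, siMYCN and siHAND2; limma adjusted p = 0.0164 and 0.0111). Its rise was lost after both rescalings and without siCTR replicate 1 or siMYCN replicate 3, and its fall without siHAND2 replicate 2. EHD4, a membrane-shaping ATPase, fell by 0.48 in siHAND2 (6.76 ± 0.847 to 4.58 ± 0.669 CPM, limma adjusted p = 0.00465), and PACSIN3 by 0.28 (28.9 ± 1.43 to 23.6 ± 1.90 CPM, adjusted p = 0.00749). The gene that rose there was CAVIN4, the cavin of muscle, by 0.27 (18.6 ± 0.757 to 22.7 ± 0.504 CPM, limma adjusted p = 0.00668), named after its value was seen.

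Around CD44, 22 of 25 genes had a row and 14 were tested, of which 7 were higher and 7 not called in siMYCN, and 3 were higher and 3 lower in siHAND2. Of all tested genes, 24.5% were higher in siMYCN, and 18.1% were higher and 11.8% lower in siHAND2. EZR encodes ezrin, one of the proteins that tie the CD44 tail to actin. Its siCTR mean was 204 ± 9.39 CPM, that of siMYCN 253 ± 6.39 and that of siHAND2 158 ± 11.9, a rise of 0.31 (limma adjusted p = 0.000244) and a fall of 0.37 (adjusted p = 4.97e-05). CEMIP2, a hyaluronan-degrading surface protein, rose by 0.47 in siMYCN, from 7.97 ± 0.461 to 11.4 ± 1.35 CPM (adjusted p = 0.00120). VCAN, the hyaluronan-binding matrix proteoglycan versican, rose by 1.09 in siHAND2, from 870.2 ± 28.9 to 1859 ± 118 CPM (limma adjusted p = 2.62e-10). The smaller VCAN rise of 0.15 in siMYCN (limma adjusted p = 0.0412) was lost under 7 alternatives, among them median-ratio rescaling (0.09) and the fits without siCTR replicate 1, 2 or 3 or siMYCN replicate 3. In siHAND2, therefore, the receptor gene CD44 fell while this matrix partner, named for its large change, rose. Of the other genes of this list called there, HAS3 and RDX were higher, and EZR, HMMR and HAPLN3 were lower.

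Among partners of annexins in membrane repair and plasminogen activation, 19 of 24 had a row and 14 were tested. In siMYCN, 6 were higher and 1 lower, and in siHAND2, 2 were higher and 2 lower, beside the same shares of all tested genes. AHNAK, a giant scaffold protein known to bind the complex of annexin A2 and S100A10, averaged 449.8 ± 51.1 CPM for siCTR, 728 ± 69.9 for siMYCN and 247 ± 20.9 for siHAND2. It rose by 0.70 in siMYCN (limma adjusted p = 5.75e-06), fell by 0.86 in siHAND2 (adjusted p = 4.41e-07), and differed by -1.56 between the knockdowns (adjusted p = 2.41e-10). Its paralogue AHNAK2 rose by 0.65 in siMYCN (12.97 ± 0.524 to 20.9 ± 0.974 CPM, limma adjusted p = 1.72e-06) and differed by 0.01 in siHAND2 (adjusted p = 0.937, with the sign turned after either rescaling). PLAT, the tissue plasminogen activator that binds annexin A2 at the cell surface, rose by 0.97 in siHAND2, from 3.73 ± 0.887 to 8.19 ± 0.801 CPM (limma adjusted p = 2.31e-05).

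**Figure D4:**
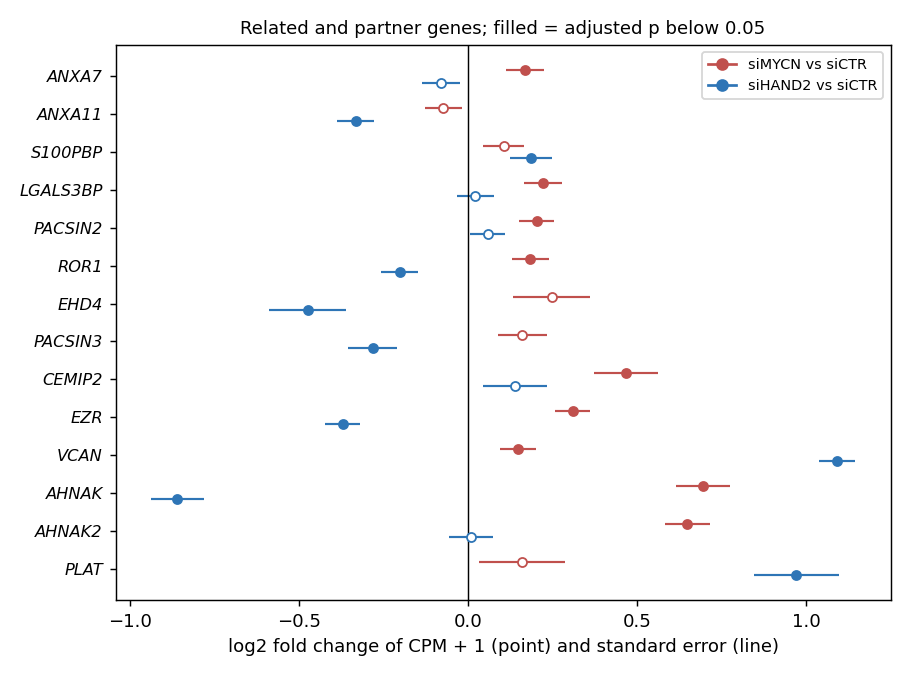
Log2 fold change of CPM + 1 (points) and standard error (lines) in siMYCN and siHAND2 against the shared siCTR libraries for 14 related and partner genes, filled where the adjusted p was below 0.05. AHNAK, EZR and ROR1 have filled points right of 0 in siMYCN and left of 0 in siHAND2, and VCAN (1.09) and PLAT (0.97) lie furthest right in siHAND2.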

How the data were processed

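RNA sequencing of total RNA was analysed in 9 LAN5 libraries, 3 per siRNA. The authors deposited CPM values with a constant of 0.0001 added. STAR 2.5.1 and Partek are named in the submitters' processing notes, together with hg19 and GRCh37. The positions in the table are those of GRCh38: of 18215 symbols in the RefSeq GRCh38.p14 table, 18215 lay on the same chromosome and 91.4% started within 5000 bp. Counting rule, strand use and filters are not given in the sources used here. Columns were matched by name, and no value column was left over.

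Of the low values (up to 20 reads), 78.8% to 80.2% were whole multiples of 1 read within 0.02, under the 95% set for a count model, so none was used. Log2(CPM + 1) of 14495 genes (at least 1 CPM in at least 3 libraries; 10589 left out) was fitted with limma 3.58.1 in R 4.3.3, with 1 mean per group over all 9 libraries, an intensity trend and two-sided tests. SDs are over 3 libraries. Simulated counts served to test the fit. Transcript lengths came by symbol from a GRCh37 annotation. Error given for read numbers is counting error alone, since PCR copies of a molecule are counted as separate reads.

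The genes and lists were chosen with earlier results of these data known. Named are the targets, the listed genes, per list and comparison with siCTR the 2 largest called changes at a mean of at least 5 CPM, and the 3 nearest profiles. Planned ratios of S100A10 to ANXA2 and of S100A11 to ANXA1 could not be formed without rows for 3 of these genes. Alternatives were pseudocounts of 0.1 and 5, no filter and a filter of 5 CPM, median-ratio and quantile scaling, a fit of 2 groups, no trend, replicate block, precision weights and each library left out.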

Additional observations from a re-analysis of the deposited data

How the results depend on the processing

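Over 15 values of the 5 genes and up to 19 alternatives each, 260 of 282 kept direction and side of the threshold, 16 lost a call, 5 gained one and 1 reversed; 9 values kept both throughout. After median-ratio rescaling, 1 gene of the 5 was called in siMYCN against siCTR (1 higher) in place of 3. Quantile normalization added 1 lower gene there, CD44. Under the filter of 5 CPM, 1 gene in place of 2 was lower in siHAND2 against siCTR, since S100A11 was not tested. Leaving out 1 library gave 2 to 4 called genes in siMYCN (2 to 3 higher, 0 to 1 lower, the lower one being CD44 without siMYCN replicate 1), 3 to 4 in siHAND2 and 3 to 4 between the knockdowns. Values that reversed in siHAND2 against siCTR, none of them called, were ANXA6 after median-ratio rescaling (-0.0047), LGALS3BP after median-ratio rescaling (-0.0348) and without siCTR replicate 3 (-0.0043) or siHAND2 replicate 1 (range with 1 library left out -0.0394 to 0.0734), and AHNAK2 after median-ratio (-0.0442) and quantile (-0.0414) scaling and without siCTR replicate 3 or siHAND2 replicate 3 (range -0.0219 to 0.0323). The uncalled CAVIN4 difference in siMYCN also reversed, after median-ratio (-0.0124) and quantile (-0.0306) scaling and without siMYCN replicate 3 (range -0.0228 to 0.109), while its siHAND2 call held under all 19 alternatives. Except where stated, the cause was not tested. The study gives no pairing, so the replicate number was not a block in the main fit. Same-numbered libraries correlated between -0.04 and 0.31 in their deviations, and other pairs between -0.30 and 0.14. The values were 0.17, 0.13 and 0.31 for replicate 1, 0.08, 0.04 and -0.04 for replicate 2, and 0.18, 0.17 and 0.17 for replicate 3. Whether the numbers mark pairs was not tested. With the replicate block, 5895, 5089 and 4689 genes were called in siMYCN, siHAND2 and the direct comparison, in place of 5209, 4339 and 3892. The block changed no call of the 5 genes. The ratio results and their alternatives were not run. Depth limits S100A11 most, at 19 to 56 reads per library.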

Other observations

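Of the 66 related genes with a row, 24 lay below the filter and entered a test only in the fit with no filter (25084 genes). There 4 of the 24 were called in siHAND2 against siCTR, beside 16.2% of all genes called, and 2 in siMYCN, beside 18.5%. All of these calls were higher, beside 62.0% of all calls in siHAND2 and 68.8% in siMYCN. A gene at 1 CPM or more in all siCTR libraries would have passed the filter, so the direction was largely set by the choice of genes. The called genes are named here after their values were seen. HAS2, which makes hyaluronan, the ligand of CD44, had about 4, 0 and 0 reads in siCTR, 2 in each siMYCN library and 22, 28 and 21 in siHAND2. That is 0.724, 1.12 and 0.744 CPM in siHAND2 and at most 0.122 CPM elsewhere, so the siHAND2 libraries stood apart (log2(CPM + 1) difference 0.83, limma adjusted p = 5.60e-06). SPP1, the gene of osteopontin, a secreted CD44 ligand, held 0.122, 0.187 and 0.0950 CPM for siCTR, 0.564, 0.422 and 0.446 for siMYCN and 1.32, 0.836 and 1.38 for siHAND2. Its groups did not overlap, and it was called in siMYCN (0.38, limma adjusted p = 0.0155), in siHAND2 (0.93, adjusted p = 1.18e-05) and between the knockdowns (0.55, adjusted p = 0.00142).

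MYOF, a ferlin of membrane repair, went from 0.148 ± 0.0054 CPM in siCTR to 0.321 ± 0.0707 in siMYCN and 0.656 ± 0.0805 in siHAND2 (SD, n = 3; siHAND2 difference 0.53, limma adjusted p = 0.000129). MMP14, a membrane protease known to cleave CD44, had 7 reads in all in siCTR, 8 in siMYCN and 30 in siHAND2 (0.32, adjusted p = 0.00508). HYAL1, a lysosomal hyaluronidase, was called in siMYCN (0.323 ± 0.228 to 0.767 ± 0.175 CPM, 0.43, adjusted p = 0.0194). All 5 genes lay at or below 1.38 CPM in every library, and the size of such differences depends on the pseudocount.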
